A study of Caenorhabditis elegans with 12 samples.

Results

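The miRNA arms described here are cel-miR-230-3p and cel-miR-230-5p, which come from the same precursor, cel-miR-1830-5p and cel-miR-1022-5p. They are 4 of the 471 features counted in small RNA libraries of whole Caenorhabditis elegans, and all 4 were among the 250 features with enough reads to be tested. They were chosen by their counts, for being higher than wild type in both the mbl-1(tm1563) mutant and the ME line, so their differences in those comparisons are given as a description, with no test. A mean above wild type in both lines was held by 91 of the 250 tested features (36.4%), and 19 (7.6%) had every library of both lines above every wild-type library, including 3 of the 4 arms. For any other pair of groups, the share of all features whose libraries do not overlap was not counted. Nothing is therefore read from such a separation of an arm below.

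The animals were the mbl-1(tm1563) mutant, a pair of lines in which mbl-1 makes only a short or only a long protein isoform, and N2 wild type, each with 3 libraries that the series' design text calls biological replicates. The isoform lines carry the alleles syb4318 and syb4345 by their titles, and the count columns carry codes read here as ME and SH. No label ties a code to an allele or to an isoform length, so neither is assigned, and the tm1563 columns were matched by the mbl-1 name that they carry without a line code. All animals were bleach-synchronized, fed OP50 bacteria at 20 °C and collected as whole L4 larvae. The labels do not say what lesion tm1563 is, nor whether a line is a single clone, and small RNA counts hold no mbl-1 messenger RNA with which to check them.

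A miRNA gene is transcribed as a longer RNA that holds a hairpin. The enzymes Drosha and Dicer cut the hairpin into a short duplex, and one strand of it, the 5p or the 3p arm, is usually kept by an Argonaute protein, where bases near its 5′ end pair with messenger RNAs. MBL-1 is the worm member of the Muscleblind family, RNA-binding proteins best known for regulating alternative splicing, and in vertebrates a Muscleblind protein also binds the hairpin of miR-1. No role is stated here for miR-230, miR-1830 or miR-1022, and their sequences were not used here.

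By the Ensembl annotation of WBcel235, the build named in the submitters' processing notes, the 3 precursors lie at separate loci. The mir-230 precursor is at chrX:5803892-5803989 on the plus strand, outside any annotated gene, with miR-230-5p at 5803908 to 5803930 and miR-230-3p at 5803952 to 5803974. The mir-1022 precursor is at chrX:6435425-6435512 on the minus strand, also between genes, with miR-1022-5p at 6435476 to 6435498. The mir-1830 precursor is at chrII:4371838-4371907 on the minus strand, within an intron of 786 bp of paic-1, on the same strand as that gene, whose human counterpart is an enzyme of purine synthesis. Its hairpin fills 70 bp of that intron, with miR-1830-5p at 4371885 to 4371907. The nearest other annotated miRNA within 10 kb is mir-791, which acts in the carbon dioxide-sensing neurons of the worm and starts 5457 bp downstream of the mir-230 start on the same strand. The mir-1830 and mir-1022 precursors have no other annotated miRNA within 10 kb.

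**Figure D1:**
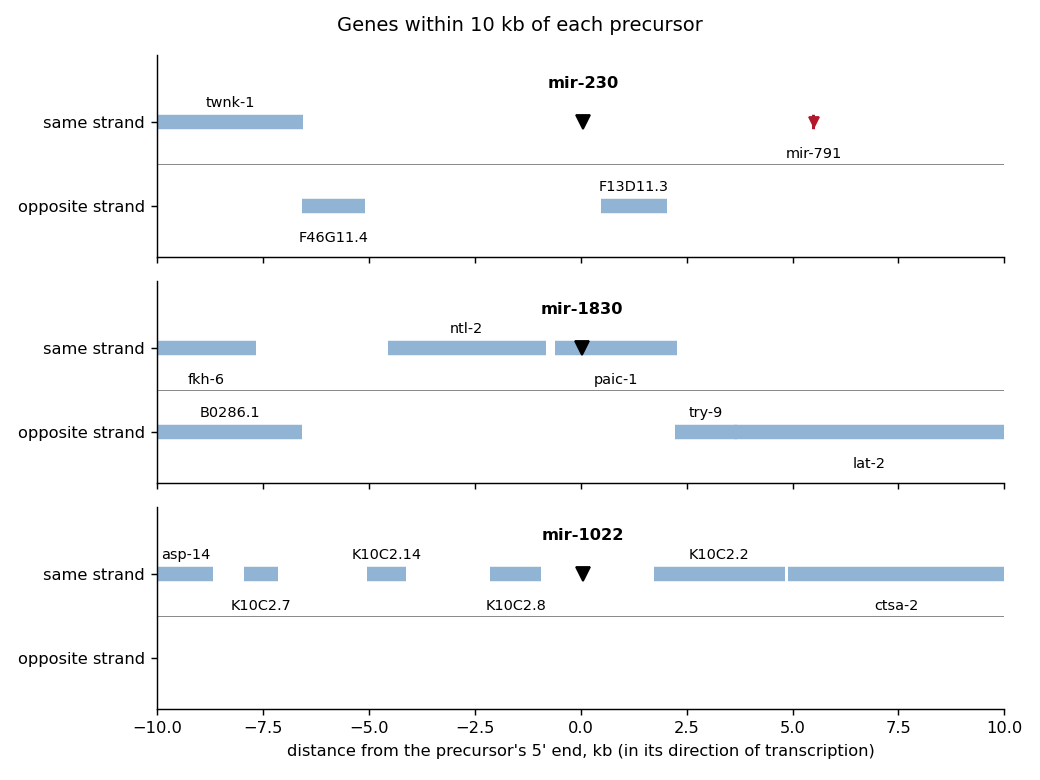
Annotated protein-coding and miRNA genes within 10 kb of the mir-230, mir-1830 and mir-1022 precursors, drawn by distance in kb from the precursor's 5′ end along its own strand. Black triangles mark the 3 precursors, blue bars protein-coding genes and the red triangle mir-791, which lies 5457 bp from mir-230, and mir-1830 alone sits inside a gene.

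Libraries held 6946205 to 12053039 counts, and the 4 arms together took 0.0245% to 0.065% of a library. Values are CPM, counts scaled to a common total per library, with library sizes adjusted by TMM, which evens out differences in RNA composition between libraries. Wild-type library 1 had the lowest scaling factor, 0.788, and the fewest features detected, 326 against 365 to 400 in the other libraries, and ME library 1 stood farthest from its own group, with chi-square values per degree of freedom of 1594 and 2515 against 406 between ME libraries 2 and 3. The late larval miRNAs let-7-5p, lin-4-5p, miR-48-5p, miR-84-5p and miR-241-5p summed to 53134 to 70511 CPM across the 12 libraries, with the range of each line overlapping that of wild type. Muscle miR-1-3p lay between 125351 and 282825 CPM, also with overlap. The 8 embryonic mir-35 family arms summed to 1675 to 1957 CPM in tm1563, 1431 to 1879 CPM in the ME line, 1707 to 1892 CPM in the SH line and 1379 to 1594 CPM in wild type, so the tm1563 and SH libraries were all above the wild-type ones. The 3 neuronal arms miR-124-3p, miR-790-5p and miR-791-3p summed to 299 to 335 CPM in tm1563, 46.3 to 76.1 CPM in the ME line, 123 to 227 CPM in the SH line and 90.3 to 158 CPM in wild type. In tm1563 against wild type 1 of these 3 rose and in the ME line against wild type 1 fell by edgeR, with 0 calls in the other marker lists in either comparison. In both cases the arm called was miR-790-5p, which made up most of the sum in every group, so the sums mainly follow that arm. The arms miR-124-3p and miR-791-3p were called in neither comparison, and the mean of miR-124-3p in tm1563 was just below that of wild type. The part of these shifts in the values of the 4 arms was not tested. In RNA of whole animals, fewer cells of a type and less RNA per cell cannot be told apart.

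Both arms of mir-230 were counted at similar levels in wild type, where miR-230-5p ranked 90th and miR-230-3p 93rd of 250 by mean level. For cel-miR-230-3p, the tm1563 libraries stood at 137, 134 and 135 CPM, the ME libraries at 172, 97.3 and 120 CPM, the SH libraries at 90.4, 70.4 and 76.8 CPM and the wild-type libraries at 69.6, 71.1 and 82.7 CPM. Every tm1563 and ME library lay above the highest wild-type one, while the SH and wild-type libraries overlapped. The tm1563 libraries were close to each other, with a mean of 135 ± 1.82 CPM (SD, n = 3), and the ME libraries were spread, at 130 ± 38.5 CPM, against 74.5 ± 7.14 CPM in wild type. The log2 fold change was 0.86 (SE 0.20) in tm1563 and 0.80 (SE 0.20) in the ME line. Without ME library 1 the ME value was 0.51, and without that library and wild-type library 1 it was 0.49.

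For cel-miR-230-5p, the tm1563 libraries stood at 112, 76.0 and 112 CPM, the ME libraries at 143, 114 and 126 CPM, the SH libraries at 91.7, 92.4 and 87.8 CPM and the wild-type libraries at 83.7, 78.5 and 71.0 CPM. In tm1563 2 of 3 libraries were above the highest wild-type library and library 2 lay within the wild-type range, so this arm was not higher than wild type in every tm1563 library. The ME and SH libraries were all above the wild-type ones. The log2 fold change was 0.36 (SE 0.18) in tm1563 and 0.72 (SE 0.18) in the ME line, and the tm1563 value was 0.17 without tm1563 library 3. Without wild-type library 1 and ME library 1 the values were 0.42 in tm1563 and 0.68 in the ME line.

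The arm cel-miR-1830-5p was the least abundant of the 4, ranking 136th of 250 in wild type. Its tm1563 libraries stood at 33.7, 42.6 and 38.4 CPM, its ME libraries at 47.1, 35.8 and 32.4 CPM, its SH libraries at 23.8, 34.1 and 43.9 CPM and its wild-type libraries at 19.9, 26.1 and 18.2 CPM. Every tm1563 and ME library lay above the wild-type range, as did 2 of the 3 SH libraries, and SH library 1 lay inside it. The log2 fold change was 0.84 (SE 0.24) in tm1563 and 0.84 (SE 0.24) in the ME line, or 0.79 in tm1563 and 0.62 in the ME line without wild-type library 1 and ME library 1. These rest on 133 to 379 reads per library.

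The most abundant of the 4 was cel-miR-1022-5p, 77th of 250 in wild type. It stood at 207, 210 and 195 CPM in the tm1563 libraries, 288, 211 and 214 CPM in the ME libraries, 149, 154 and 168 CPM in the SH libraries and 137, 142 and 150 CPM in the wild-type libraries. Every tm1563 and ME library was above every SH and every wild-type library, and the SH and wild-type libraries overlapped. The log2 fold change was 0.51 (SE 0.16) in tm1563 and 0.73 (SE 0.16) in the ME line, or 0.48 in tm1563 and 0.53 in the ME line without wild-type library 1 and ME library 1.

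**Figure D2:**
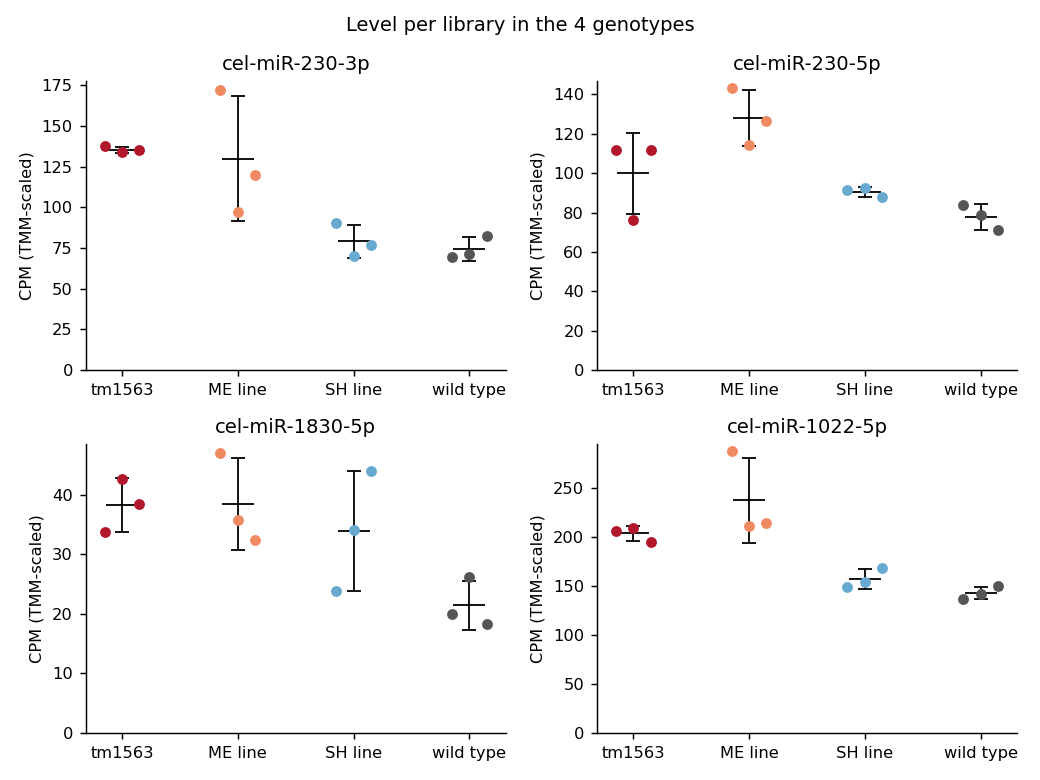
Level of each arm in CPM on TMM-scaled library sizes, 1 panel per arm, with 1 dot per library and the mean ± SD of 3 libraries in black, for tm1563, the ME line, the SH line and wild type. ME library 1 was the highest library for all 4 arms, for example 172 CPM for miR-230-3p, and only miR-230-5p had a tm1563 library, at 76.0 CPM, within the wild-type range.

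Ordered by group mean, the ME line was highest for miR-230-5p, miR-1830-5p and miR-1022-5p and tm1563 for miR-230-3p, then the SH line, and wild type was lowest for each arm. For miR-1022-5p tm1563 and the SH line were separated with no overlap, and for miR-230-3p likewise. The share of all features separated in this way was not counted, and tm1563 was used in the choice, so nothing is read from it. For miR-1830-5p the tm1563, ME and SH libraries overlapped, at 38.2 ± 4.48, 38.4 ± 7.69 and 33.9 ± 10.1 CPM (SD, n = 3 each). The means of tm1563 and the ME line differed by less than the SD of the ME libraries for miR-230-3p, miR-1830-5p and miR-1022-5p, and by more for miR-230-5p. For miR-230-3p and miR-1022-5p they differed by more than the smaller SD of the tm1563 libraries. By edgeR, 13 of the 250 features (5.2%) were called higher in tm1563 and 19 (7.6%) in the ME line, and 2 of the 4 arms were called in tm1563, miR-230-3p and miR-1830-5p, and all 4 in the ME line, counts that the choice of members shaped. These counts turned on the scaling, the filter and single libraries. With library totals 1 of the 4 was called in tm1563 and 3 in the ME line, where miR-1830-5p was not called in either line, and in tm1563 1 was called with no filter and 3 with a stricter one of at least 50 counts in 3 libraries. In the ME line 0 of the 4 were called without ME library 1 and 2 to 4 without any other ME or wild-type library, and in tm1563 0 were called without any 1 of its own libraries and 1 without any 1 wild-type library. The authors' deposited tables list 51 features for tm1563 and 41 for the ME line. Among these, 3 of the 4 arms are higher in tm1563, the exception being miR-230-5p, and all 4 in the ME line. Their log2 fold changes are 0.43 to 0.77 in the tm1563 table and 0.62 to 0.71 in the ME table. The choice of members shaped these counts too. The other features that edgeR called higher in both lines were miR-243-3p, which is loaded into the Argonaute RDE-1, miR-57-5p, known for a role in the fate of cells at the posterior end, and miR-90-3p. Their log2 fold changes were 0.96, 0.83 and 1.39 in tm1563 and 1.09, 0.83 and 0.66 in the ME line.

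The SH line was not used to choose the arms, although its comparison shares the wild-type libraries that were. It was set against wild type to ask whether the arms also differ in a line that makes another MBL-1 isoform. None of the 4 passed there by edgeR or by DESeq2, in a comparison where edgeR called 5 of 250 features (2%), 0 higher and 5 lower. Of the 4, 1 had an unadjusted edgeR p below 0.05, as did 36 of the 250 features. The mean of miR-230-3p was 79.2 ± 10.2 CPM in the SH line against 74.5 ± 7.14 CPM in wild type (SD, n = 3 each), a log2 fold change of 0.09 (95% interval -0.33 to 0.51, edgeR adjusted p = 0.910). For miR-230-5p it was 90.6 ± 2.51 CPM against 77.7 ± 6.41 CPM in wild type, a log2 fold change of 0.22 (-0.16 to 0.60, edgeR adjusted p = 0.579), with all 3 SH libraries above the wild-type ones. For miR-1022-5p it was 157 ± 10.1 CPM against 143 ± 6.44 CPM in wild type, a log2 fold change of 0.13 (-0.21 to 0.48, edgeR adjusted p = 0.783).

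The arm with the lowest unadjusted p was miR-1830-5p, at 33.9 ± 10.1 CPM in the SH line and 21.4 ± 4.16 CPM in wild type. Its log2 fold change was 0.66 (95% interval 0.15 to 1.18), with an unadjusted p of 0.0149 and an edgeR adjusted p of 0.217. It was higher than the wild-type mean in 3 of 3 SH libraries, as were miR-230-5p and miR-1022-5p, and miR-230-3p was in 2 of 3. The share of all features with this was not counted. For miR-1830-5p the edgeR adjusted p lay between 0.0663 and 0.415 with single libraries left out. Without SH library 3 its log2 fold change was 0.43. Over the 4 arms the median log2 fold change was 0.18 in the SH line, where that of all 250 features was -0.03. It was 0.67 in tm1563 and 0.77 in the ME line, with medians of 0.03 and 0.07 over all features. The choice of members put these 2 medians above those of all features, so nothing is read from the gap. The wild-type libraries used in the choice enter the SH median too.

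**Figure D3:**
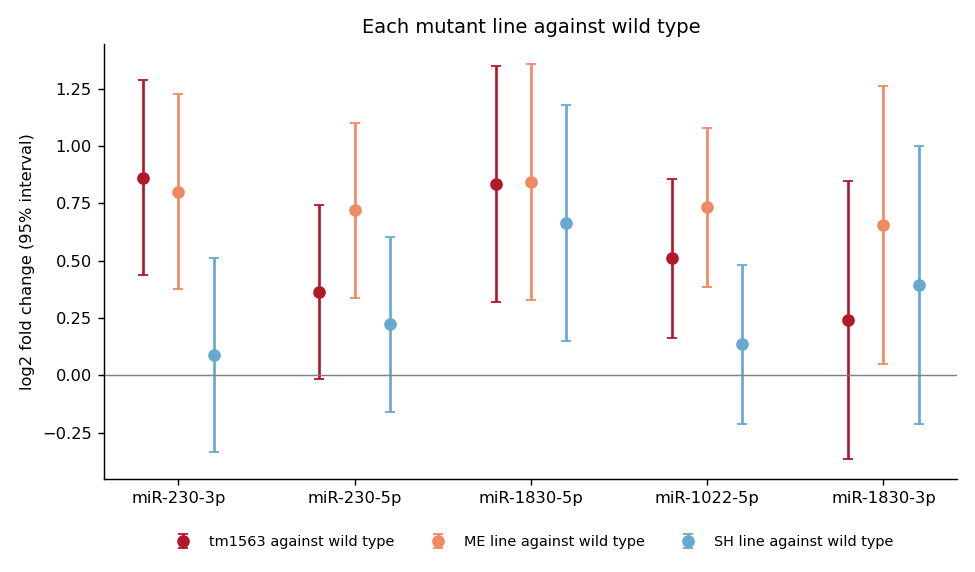
Log2 fold change of each arm, and of miR-1830-3p, in tm1563, the ME line and the SH line against wild type, with 95% intervals from the edgeR fit of 12 libraries. In the SH line miR-1830-5p stood at 0.66 and the other 3 members at 0.09 to 0.22, with intervals that include 0.

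Both tm1563 and the ME line were used to choose the arms, and asking that both be high favours arms at similar levels in them, so their difference is given with no test. By edgeR, 24 of 250 features (9.6%) were called in tm1563 against the ME line, and 0 of the 4 arms, from which nothing is read. The widest gap was that of miR-230-5p, at 99.9 ± 20.7 CPM in tm1563 against 128 ± 14.4 CPM in the ME line (SD, n = 3 each), with all tm1563 libraries below the ME ones. Its log2 fold change was -0.36 (SE 0.18). The tm1563 libraries of miR-1022-5p were also all below the ME ones, at 204 ± 7.65 CPM in tm1563 against 238 ± 43.5 CPM in the ME line (log2 fold change -0.22, SE 0.16). The log2 fold changes of miR-230-3p, 0.06 (SE 0.20), and miR-1830-5p, -0.01 (SE 0.24), were smaller than their SE, and both changed sign when single libraries were left out.

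**Figure D4:**
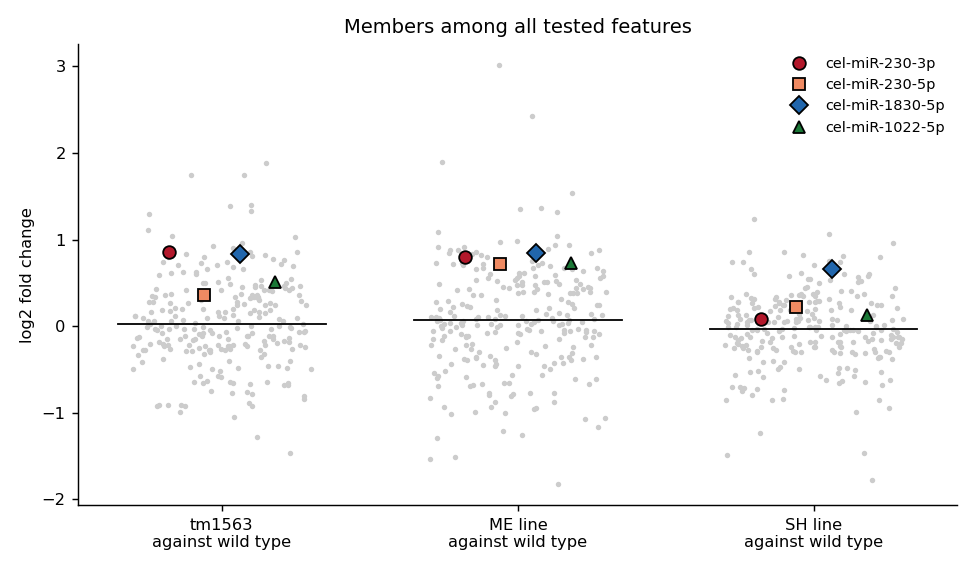
Log2 fold change of all 250 tested features (grey dots) in tm1563, the ME line and the SH line against wild type, with the median as a black line and the 4 arms as coloured symbols. The arms were ranked 14th to 68th of 250 in tm1563 and 21st to 30th in the ME line, which the choice of members fixed in part, and 14th to 90th in the SH line.

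The ME and SH lines make different MBL-1 isoforms. Side by side, miR-230-3p averaged 130 CPM in the ME line and 79.2 CPM in the SH line, and miR-230-5p averaged 128 CPM in the ME line and 90.6 CPM in the SH line. The mean of miR-1022-5p was 238 CPM in the ME line and 157 CPM in the SH line, and that of miR-1830-5p was 38.4 CPM in the ME line and 33.9 CPM in the SH line. The libraries of the ME and SH lines did not overlap for miR-230-3p, miR-230-5p and miR-1022-5p, and they overlapped for miR-1830-5p. How many of all features are separated in this way was not counted, and edgeR called 36 of 250 (14.4%) in this comparison. The ME columns were used to choose the arms, so these differences carry no test.

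The partner arms of miR-1830-5p and miR-1022-5p were not used in the choice. Each comes from the same hairpin as a chosen arm and was counted in the same libraries. The tests of miR-1830-3p in tm1563 and the ME line against wild type are therefore not independent of the choice. The arm miR-1830-3p is the more abundant strand of its hairpin and stood at 333 ± 8.22 CPM in tm1563, 444 ± 202 CPM in the ME line, 370 ± 146 CPM in the SH line and 282 ± 27.7 CPM in wild type (SD, n = 3 each). All 3 tm1563 libraries, at 337, 323 and 338 CPM, were above the wild-type libraries at 303, 292 and 250 CPM, while the ME libraries ran from 279 to 669 CPM. Its log2 fold change was 0.24 in tm1563 against wild type (95% interval -0.36 to 0.85, edgeR adjusted p = 0.635), 0.66 in the ME line against wild type (0.05 to 1.26, edgeR adjusted p = 0.126) and 0.39 in the SH line against wild type (-0.21 to 1.00, edgeR adjusted p = 0.519). It passed in none of these, nor in tm1563 against the ME line (-0.42) or in the ME line against the SH line (0.26), where edgeR called 14.4% of features. By edgeR its unadjusted p was below 0.05 in 1 of the 5 comparisons, the ME line against wild type, and DESeq2 called it in 0 of them. Without ME library 1 the ME value against wild type was 0.20, and without SH library 3 the SH value was 0.02.

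The other partner, miR-1022-3p, was counted at 0 to 5 reads per library and 26 reads in all, against 18650 for miR-1022-5p, so it made up 0.139% of the reads of both arms. It was too low to be tested, and a library with 0 reads allows a level of up to 0.305 to 0.392 CPM, taken as 3 counts and covering counting error only. The neighbour mir-791 was counted far below mir-230. Its arm miR-791-3p averaged 3.79 ± 1.08 CPM in tm1563, 0.737 ± 0.333 CPM in the ME line, 0.562 ± 0.388 CPM in the SH line and 1.26 ± 1.25 CPM in wild type (SD, n = 3 each). All 3 tm1563 libraries were above the ME libraries, with an edgeR adjusted p of 0.0244 and a log2 fold change of 2.32 (SE 0.63) that rests on 4 to 39 reads per library. The other arm, miR-791-5p, overlapped between these lines, at 0.457 to 1.32 CPM in tm1563 and 0.150 to 0.495 CPM in the ME line. Between the same lines the log2 fold change was 0.06 for miR-230-3p and -0.36 for miR-230-5p. The choice of members shaped these values of mir-230, so nothing is read from their gap to miR-791-3p.

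A share of arms within a precursor does not depend on how libraries are scaled. The 3p arm took 55.1%, 63.8% and 54.7% of the mir-230 reads in the tm1563 libraries, 54.6%, 45.9% and 48.7% in the ME libraries, 49.7%, 43.2% and 46.7% in the SH libraries and 45.4%, 47.5% and 53.8% in the wild-type libraries. The tm1563 libraries were all above the wild-type ones, by the most in library 2, at 63.8% (95% exact binomial interval 61.4% to 66.1% of 1678 reads). The ME and wild-type libraries overlapped, and so did the SH and wild-type libraries, at 46.5% ± 3.21 and 48.9% ± 4.37 (SD, n = 3 each, exact two-sided permutation p = 0.5, where 3 against 3 allow 0.1 at the least). For mir-1830 the 3p arm took 88.4% to 90.9% in tm1563, below the 91.8% to 93.8% of wild type. It took 89.6% to 93.4% in the ME line and 90.2% to 92.4% in the SH line (SH against wild type, exact two-sided permutation p = 0.2). Only the other arm of mir-1830 was chosen for being higher than wild type in tm1563 and the ME line. The choice therefore favours a lower 3p share in those lines, and nothing is read from it. The wild-type counts used in the choice enter the SH comparison of mir-1830 too.

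**Figure D5:**
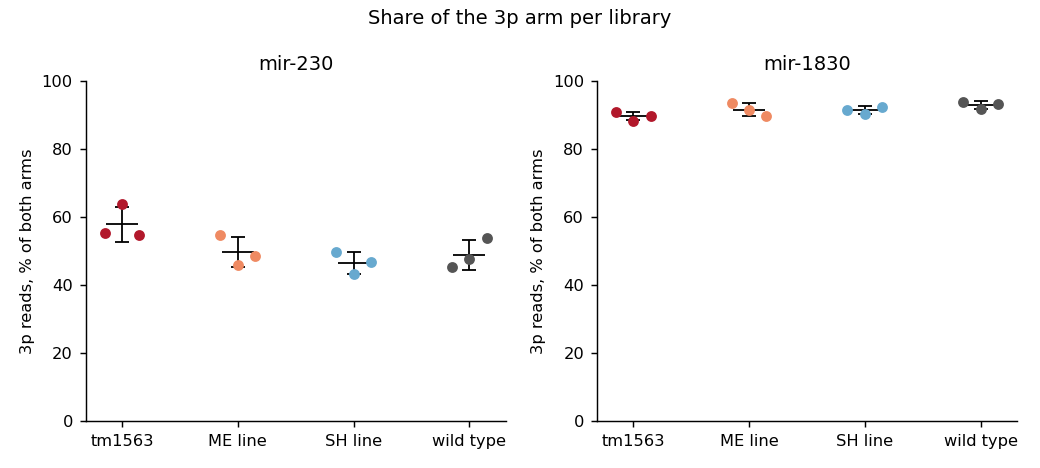
Reads of the 3p arm as a percentage of the reads of both arms, per library (dots) with mean ± SD in black, for mir-230 and mir-1830 in tm1563, the ME line, the SH line and wild type. The mir-230 arms were near balance, at 43.2% to 63.8%, and mir-1830 gave mostly its 3p arm, at 88.4% to 93.8%.

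Across the 12 libraries, the features most like each arm were named by Pearson's r of log2 CPM. For miR-230-3p they were miR-1022-5p (r = 0.902), miR-57-5p (0.875) and miR-243-3p (0.847), and for miR-1022-5p they were miR-243-3p (0.919), miR-789-5p (0.911) and miR-57-5p (0.906). For miR-1830-5p they were miR-53-5p (0.913), miR-244-5p (0.840) and miR-792-3p (0.832). For miR-230-5p they were miR-788-5p (0.861), miR-44-5p (0.798) and miR-56-5p (0.797), and its own 3p partner stood at 0.666. The median r with the other 249 features was 0.0995 to 0.171 for the 4 arms. These points share libraries, depth and genotype, and the arms were chosen for a common pattern. After subtracting each genotype's mean, r between the members was 0.753 for miR-230-3p with miR-1022-5p and 0.581 for miR-1830-5p with miR-1022-5p. It was 0.313 for the arms of mir-230 and between -0.0540 and 0.138 for the other 3 pairs. The pair at 0.753 leans on the ME libraries, the most spread for both arms, with SDs of 38.5 and 43.5 CPM. In the other groups the SDs were at most 10.2 and 10.1 CPM. ME library 1 was the highest library for both, and r without it was not taken.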

How the data were processed

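Small RNA inserts of 18 to 40 nt were read from 1 end over 50 nt. The authors deposited whole-number read counts per mature arm, with no normalization, and the submitters' processing notes name Bowtie, DESeq2 and the build WBcel235. How multi-mapping reads were treated, and with which program reads were counted, is not given in the sources used here. The authors' deposited tables hold log2 fold changes and an adjusted p-value and list part of the features. Their log2 fold changes correlated with the ratios of group means of the count columns at r = 0.997 for ME (41 features) and 0.996 for SH (12), and at 0.499 and 0.806 with the codes exchanged. Library columns left unmapped numbered 0, and the per-million columns were not used.

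The 12 libraries entered 1 edgeR 4.0.16 quasi-likelihood fit (R 4.3.3, TMM, robust, filterByExpr with minimum count 10 and total 15), with 1 mean per genotype, and p was adjusted by Benjamini-Hochberg over 250 features with a threshold of 0.05. The 221 features left out held 0.0049% of counts. An SE is the size of the log2 fold change divided by the square root of F. The fit was tested on simulated data. Correlations used log2 CPM with a prior count of 2. Named beside the members were partner arms, miRNAs within 10 kb, the 3 features most like each member, marker arms and other features called higher in both lines. Alternatives were RLE factors, library totals, other filters, DESeq2 1.42.0, the 2 groups alone, a replicate block and libraries left out. Members, lists and tests were chosen with earlier results of these data known.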

Additional observations from a re-analysis of the deposited data

How the results depend on the processing

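Of the recomputed values, 323 were taken as unchanged, 34 moved further and 13 changed sign. The value of an arm was unchanged if it kept its call or stayed within the replicate spread of the reported value. Counts of features called have no such spread. A shift from 34 to 49 calls in the ME line against wild type with DESeq2 was still taken as unchanged. The cause of each change given here was not tested. In tm1563 against wild type, 25 features were called, and 15 with library totals, 41 with the 2 groups alone and 16 with the replicate block. With the replicate block miR-1830-5p gave 0.67 in the SH line against wild type (edgeR adjusted p = 0.274), and in tm1563 against wild type miR-1830-5p was no longer called, so 1 of the 4 members was called where 2 had been. It changed no call of the members in the ME or SH line against wild type or in tm1563 against the ME line, and none of miR-1830-3p. Deviations of same-numbered libraries correlated at -0.527 to 0.226. The sample titles give no pairing beyond the number, and these values cannot settle whether same-numbered libraries shared a batch. In the SH line against wild type, 5 features were called, and 0 with library totals (32 at an unadjusted edgeR p below 0.05), 0 with the 2 groups alone (31), 10 with DESeq2 and 9 without wild-type library 1 and ME library 1. Leaving out both of those libraries gave 0.49 for miR-230-3p, 0.53 for miR-1022-5p and 14 calls, where 34 were made, in the ME line against wild type, and -0.16 for miR-1830-3p in the ME line against the SH line.

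In tm1563 against the ME line, miR-1830-5p, reported at -0.01, was 0.0299 with RLE factors, 0.0555 with library totals, 0.0297 with DESeq2, 0.0315 with the 2 groups alone and 0.17 without both libraries, where miR-1830-3p was 0.0132. With library totals 15 features were called there, against 24, and 18 in the ME line against the SH line, against 36. Library totals put the median of all features at 0.15 in tm1563, where TMM gave 0.03, and at 0.13 in the ME line, where TMM gave 0.07.

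With single libraries left out, tm1563 against wild type ranged from 0.17 to 0.45 for miR-230-5p and from 5 to 16 calls. The ME line against wild type ranged from 0.51 to 1.01 for miR-230-3p, 0.54 to 0.85 for miR-1022-5p and 10 to 39 calls, and the SH line against wild type from 2 to 8 calls. Against the ME line, tm1563 ranged from -0.27 to 0.24 for miR-230-3p, -0.22 to 0.0790 for miR-1830-5p and 13 to 35 calls, and the ME line against the SH line from -0.22 to 0.63 for miR-1830-3p and 12 to 36 calls. The mir-230 arm share, SH minus wild type, ranged from -4.14 to 0.0590 percentage points. Shared seeds and a Muscleblind motif in the hairpins were not run, since sequences were not used here.

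P-values measure the spread between these libraries, and binomial intervals cover counting error only.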
